A study of Mus musculus with 12 samples.

Results

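*Rhox5*, *Rhox6* and *Rhox9* are reproductive homeobox genes of the X chromosome, and they were chosen by their levels in the 4 groups and by the ratio of *Kdm5c* mutant to control cells in each sex. Of these 3 genes, *Rhox6* and *Rhox9* were found in the tables, 2 of 22911 genes, and *Rhox5* was not analysed here. The tables hold 28 other *Rhox* genes, whose levels were examined beside those of *Rhox6* and *Rhox9*. RNA-Seq was done on mouse epiblast-like cells (EpiLCs), cells of the early post-implantation epiblast type that were made from embryonic stem cells (ESCs) by culture with FGF2 and Activin A for 48 h. There were 3 libraries in each of 4 groups: female *Kdm5c* fl/fl (fWT), female *Kdm5c* Δ/Δ (fKO), male *Kdm5c* fl Y (mWT) and male *Kdm5c* Δ Y (mKO). The labels give the strain as C57BL/6J and the genotype by the older gene name, as *Smcx* wild type or knockout; the study's methods give a mixed background, and describe the libraries as separate ESC lines. The controls carry the floxed allele, and the deletion removes part of the gene, including exons of the catalytic JmjC domain. The comparison asks which RNAs change when the H3K4 demethylase KDM5C is lost, in each sex.

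The *Rhox* genes form a cluster of homeobox transcription factor genes that are known for expression in the placenta, the germ line and the reproductive tract. DNA methylation, laid down by the de novo methyltransferases at about the time of implantation, keeps much of the cluster silent in the embryo proper, while members of it are active in extraembryonic lineages. In mouse a part of the cluster beside *Rhox1* has been copied several times over, which gave the many *Rhox2*, *Rhox3* and *Rhox4* copies. *Rhox5*, also called *Pem*, is the founding member.

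In mm9, the build of the authors' alignment, the *Rhox* genes of the tables lie between positions 34753799 and 35483143 of the X chromosome. *Rhox6* is on the plus strand at chrX:35180087-35183034, and *Rhox9* is on the minus strand at chrX:35252274-35255044. They are close paralogs: their coding sequences, of 684 bases each, aligned without gaps and were identical at 620 bases, or 90.6%. The sequences below are shown because reads of 50 bases can be given to one of the paralogs only where they differ. The longest run that they share covers coding bases 167 to 327, counted from the A of the ATG, and is given first. Coding bases 343 to 462 are the window of 120 bases with the most differences, and the 24 bases that differ between the genes are in capitals.
Rhox6 and Rhox9, shared run: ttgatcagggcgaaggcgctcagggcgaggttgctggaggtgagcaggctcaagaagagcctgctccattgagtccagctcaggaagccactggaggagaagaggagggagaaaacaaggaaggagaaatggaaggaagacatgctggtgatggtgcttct
Rhox6, bases 343 to 462: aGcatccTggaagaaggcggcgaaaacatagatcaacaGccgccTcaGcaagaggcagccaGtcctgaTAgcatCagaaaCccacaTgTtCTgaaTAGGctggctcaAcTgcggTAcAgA
Rhox9, bases 343 to 462: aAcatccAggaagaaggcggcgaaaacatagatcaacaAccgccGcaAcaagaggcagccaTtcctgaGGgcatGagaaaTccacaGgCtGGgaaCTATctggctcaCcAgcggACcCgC

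Of the 635 windows of 50 coding bases, 112 (17.6%) were identical in both genes, and the other 523 held at least 1 difference. Over all annotated exons, 68.7% of the 50-base words of *Rhox6* and 64.7% of those of *Rhox9* occurred at 1 place only in mm9. The authors state that only uniquely mapped reads were kept. *Rhox2e*, however, had 23, 38 and 22 reads in mWT, although 0% of its 50-base words occurred at 1 place only. Whether reads from the shared parts were counted for *Rhox6* or *Rhox9* is therefore not known.

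Values are normalized counts, that is, reads per gene divided by the size factor of the library. The authors deposited the mean of each group, and the reads of the single libraries were worked out from these means. The libraries were named A, B and C in each group by falling size factor, since they could not be matched to sample names. On the genes whose reads could be worked out, those with a mean of at most 10000, they held 5516216 to 11092731 reads. These genes made up 86.0 to 91.4% of the normalized counts of a group. The 51 to 77 genes per group above that mean were left out of the fits. *Kdm5c* itself was counted at 2336, 2429 and 2315 in fWT and at 1406, 1447 and 1505 in fKO. In males it was at 2195, 2110 and 2371 in mWT and at 1897, 1943 and 1976 in mKO. All knockout libraries lay below all controls of their sex, with a log2 change of -0.70 in females (limma adjusted p = 4.7e-09) and of -0.20 in males that did not pass (adjusted p = 0.274). Among the male libraries, mWT library B and mKO library A stood apart from the others of their group. In mWT libraries A and C, 3190 and 2919 of 4982 genes that were nearly silent in the other groups had reads, against 398 in mWT library B. The EpiLC markers fixed for the check had a summed normalized count of 6819 to 17531 per library. *Dnmt3a* and *Dnmt3b* are among them, at 3115 and 2044 of the 6819 in mKO library B. The sum therefore does not show that each marker was present. Because mWT library B and mKO library A stood apart, counts of called genes in males are given with all libraries and also without these 2. The latter fit keeps mWT libraries A and C, with their reads on nearly silent genes. It has 2 libraries in each male group, so its adjusted p-values rest on these controls.

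*Rhox6* RNA was higher in mutant cells of both sexes, and by far more in males. It was at 37.2, 42.8 and 50.0 normalized counts in fWT libraries A, B and C and at 93.3, 103 and 103 in fKO. In males it was at 26.9, 40.3 and 37.4 in mWT and at 210, 860 and 827 in mKO. Every mutant library lay above every control library of its sex, and mKO library A was lower than the other mKO libraries. The mean was 2.30 times that of the control in females (43.4 ± 6.42 and 99.7 ± 5.56, SD, n = 3) and 18.1 times in males (34.9 ± 7.04 and 632 ± 366, SD, n = 3).

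*Rhox9* RNA followed the same order of groups. It was at 78.5, 67.0 and 84.5 in fWT and at 179, 159 and 213 in fKO. In males it was at 36.9, 49.6 and 51.7 in mWT and at 377, 1633 and 1497 in mKO. The groups did not overlap within either sex, and mKO library A again was the lowest mKO library. The mean of the mutant was 2.40 times that of the control in females (76.6 ± 8.90 and 184 ± 27.3, SD, n = 3) and 25.4 times in males (46.1 ± 8.03 and 1169 ± 689, SD, n = 3). These differences chose the genes and were not tested.

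**Figure D1:**
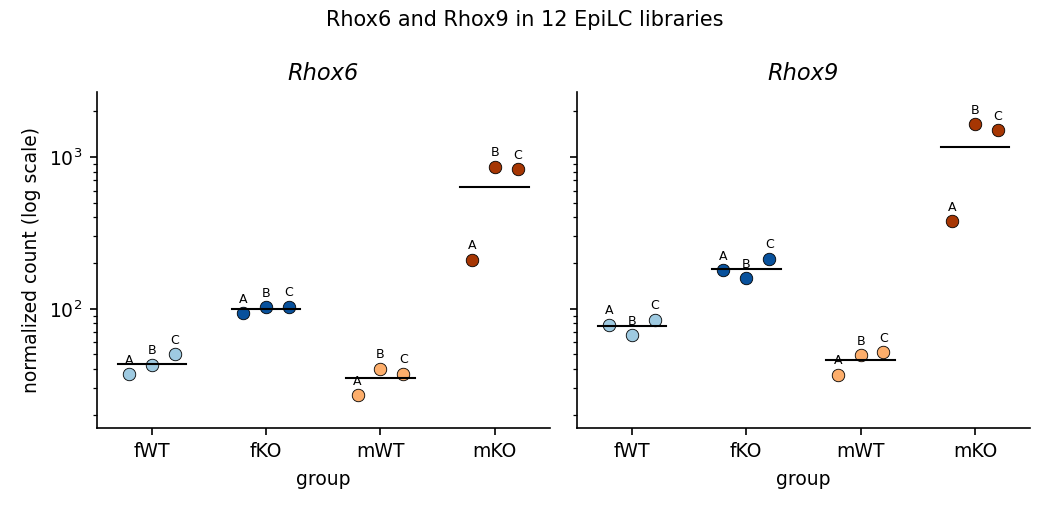
Normalized counts of *Rhox6* and *Rhox9* (log scale) in the 12 libraries by group, with each point a library (A, B or C) and the line the mean of the 3. mKO libraries B and C lie at 827 or more for *Rhox6* and at 1497 or more for *Rhox9*, while mKO library A is at 210 and 377.

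On the log2(normalized count + 1) scale, the change of *Rhox6* was 1.19 (SE 0.16) in females and 3.91 (SE 0.47) in males. That of *Rhox9* was 1.25 (SE 0.13) in females and 4.39 (SE 0.47) in males. With each library left out in turn, the male changes ranged from 3.56 to 4.58 for *Rhox6* and from 4.01 to 5.07 for *Rhox9*. Without mWT library B and mKO library A they were 4.69 and 5.13. mKO library A alone was 5.21 times the highest mWT library for *Rhox6* and 7.28 times for *Rhox9*, so both genes were high in it too. Ranked by change among genes with a mean of 10 or more, *Rhox9* was number 6 and *Rhox6* number 10 of 14304 in males. In females they were number 670 and number 732 of 13915.

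The sexes differed in the mutants more than in the controls. The mean of fWT was 1.24 times that of mWT for *Rhox6* and 1.66 times for *Rhox9*. The mean of mKO was 6.34 times that of fKO for *Rhox6* and 6.35 times for *Rhox9*. From low to high, the groups stood in the order mWT, fWT, fKO and mKO for both genes. The *Rhox6* values of mWT and fWT overlapped, those of *Rhox9* did not.

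The levels of the paralogs per length depended on the length used. Their main transcripts have 1010 bases for *Rhox6* and 979 for *Rhox9*, while all annotated exons of *Rhox9* cover 2585 bases. Per kb of main transcript, *Rhox9* was at 78.3 normalized counts in fWT against 42.9 for *Rhox6*, and at 1194 against 626 in mKO. Per kb of all exons, *Rhox9* was at 29.6 in fWT and 452 in mKO, below *Rhox6*, so no order of the paralogs can be given. The number of *Rhox9* reads per *Rhox6* read was 1.79 ± 0.28 in fWT, 1.85 ± 0.27 in fKO, 1.33 ± 0.09 in mWT and 1.83 ± 0.06 in mKO (SD, n = 3). It thus lay between 1.79 and 1.90 in all 3 mKO libraries, mKO library A included, although the level differed by up to 4.34 times between them. Together the genes made up 11.6 to 18.6% of all *Rhox* normalized counts in mWT and 76.6 to 86.9% in mKO. In females the share was lower in fKO (35.7 to 40.6%) than in fWT (48.5 to 49.8%), where the other *Rhox* genes summed to 456 ± 50.9 against 124 ± 10.3 normalized counts.

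Over all genes, limma called 25.4% of 19583 genes higher and 24.6% lower in fKO, and 4.19% of 21900 genes higher and 3.58% lower in mKO, at an adjusted p under 0.05. Of the 28 other *Rhox* genes, 24 had a read in females, and 11 of these rose, none fell and 13 did not pass. In males 24 had a read as well, and 1 rose, 7 fell and 16 did not pass. The female count of genes that rose was 45.8% of those tested, and the male count of genes that fell was 29.2%. In females 7 rose without fWT library C, and 9 or 10 when another library was left out. Their median log2 change was 1.11 in females and -0.68 in males, against 0.00 and -0.16 over all genes tested. With mWT library B and mKO library A left out, 5 rose and 9 fell in males. That fit called 9377 genes over all genes, against 1703 with all libraries. When mWT library A or mWT library C alone was left out, none rose and 1 fell, in fits that called 412 and 331 genes over all genes. Without mKO library A, 4 rose and 7 fell, in a fit that called 4314 genes. The change differed between the sexes for 12 of 25 other *Rhox* genes, by the interaction of sex and genotype, against 21.2% of 22014 genes tested. All of these but *Rhox13* were *Rhox2* or *Rhox4* copies. The copies are counted one by one in this paragraph but are not separate observations, so such counts cannot be set directly against the shares over all genes.

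**Figure D2:**
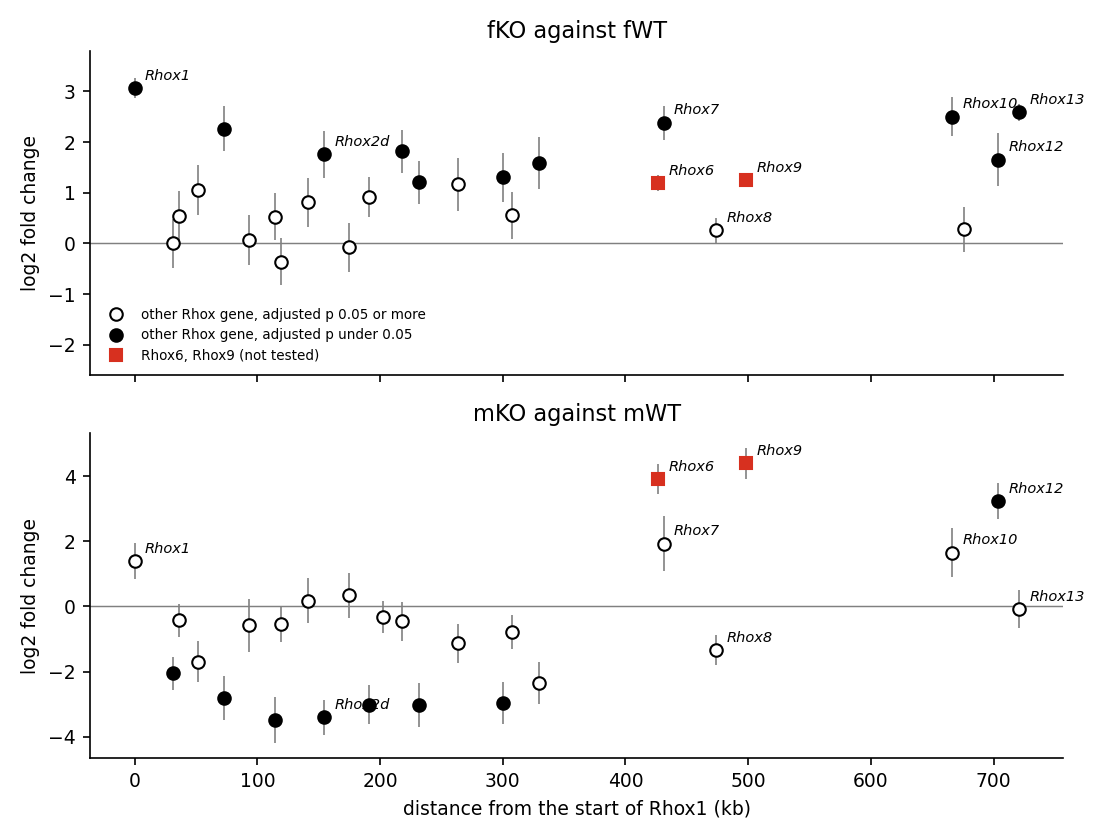
Change of each *Rhox* gene with a read (log2 fold change on the log2(normalized count + 1) scale, with SE) by its distance from the start of *Rhox1* in kb, for fKO against fWT (top) and mKO against mWT (bottom). Filled points passed the test in limma, open points did not, and squares are *Rhox6* and *Rhox9*, which were not tested; *Rhox2* copies lie at or above 0 in females and below 0 in males.

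*Rhox1*, at the end of the cluster, rose in female mutants. It was at 13.1, 12.1 and 15.6 in fWT and at 119, 116 and 124 in fKO (log2 change 3.06, SE 0.20, limma adjusted p = 4.4e-10). Male libraries were at 16.9, 24.8 and 11.5 in mWT and at 18.7, 72.0 and 71.4 in mKO. mKO library A was as low as the controls there, and the change of 1.39 (SE 0.54) did not pass (limma adjusted p = 0.155). It was 2.28 without mWT library B and mKO library A (adjusted p = 0.0011).

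*Rhox13*, at the other end of the cluster, is known for expression in germ cells. It was at 24.1, 22.0 and 28.9 in fWT and at 147, 159 and 156 in fKO, and rose by 2.58 (SE 0.16, limma adjusted p = 3.4e-10). Its male levels were 103, 139 and 99.2 in mWT and at 31.7, 195 and 191 in mKO. mKO library A lay below the controls and the others above, and the change was -0.08 (SE 0.59, adjusted p = 0.940). It was 0.93 without mWT library B and mKO library A (adjusted p = 0.0011).

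*Rhox7*, the nearest neighbour of *Rhox6*, was at 4.02, 9.88 and 5.56 in fWT and at 30.6, 36.2 and 42.4 in fKO. It rose by 2.38 (SE 0.34, limma adjusted p = 9.6e-06). Of the 50-base words of *Rhox7*, 41.7% occurred at 1 place only in mm9, so which gene its reads came from is not certain. *Rhox10* had 2, 2 and 1 reads in fWT and 14, 17 and 19 in fKO, and rose by 2.50 (SE 0.39, adjusted p = 3.3e-05). In males neither passed (adjusted p = 0.200 and 0.205), and mKO library A was at 7.30 and 0.81, within or near the controls. With mWT library B and mKO library A left out both were called higher, by 2.88 (limma adjusted p = 0.046) and 2.05 (adjusted p = 0.012). *Rhox10* overlaps *Rhox11* on the opposite strand, and the strand setting of the counting was not given in the sources used here.

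*Rhox12* had no read in any mWT library and was at 7.30, 5.07 and 15.5 in mKO. Against a floor of 3 reads over the mWT group, it was at least 8.26-fold higher (limma adjusted p = 0.0100). It also rose in females, from 2, 0 and 0 reads in fWT to 5, 2 and 6 in fKO (adjusted p = 0.013). The male call was lost without mKO library C, mWT library A or mWT library C (limma adjusted p up to 0.060), and the female call without fKO library A, fKO library C, fWT library B or fWT library C (up to 0.090).

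*Rhox8*, which lies between *Rhox6* and *Rhox9* and is known for expression in Sertoli and granulosa cells of the gonads, overlapped between mutant and control in both sexes. It was at 59.4, 53.8 and 68.9 in fWT and at 40.8, 94.3 and 98.0 in fKO, with an adjusted p of 0.434 in limma. fKO library A was below the controls and the other fKO libraries above them, and without fKO library A the change was 0.66 (adjusted p = 0.0057). Male levels were 204, 81.7 and 126 in mWT and at 106, 30.4 and 39.3 in mKO, with a change of -1.33 (SE 0.47, limma adjusted p = 0.116). It was -2.19 without mWT library B and mKO library A (adjusted p = 0.0011).

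**Figure D3:**
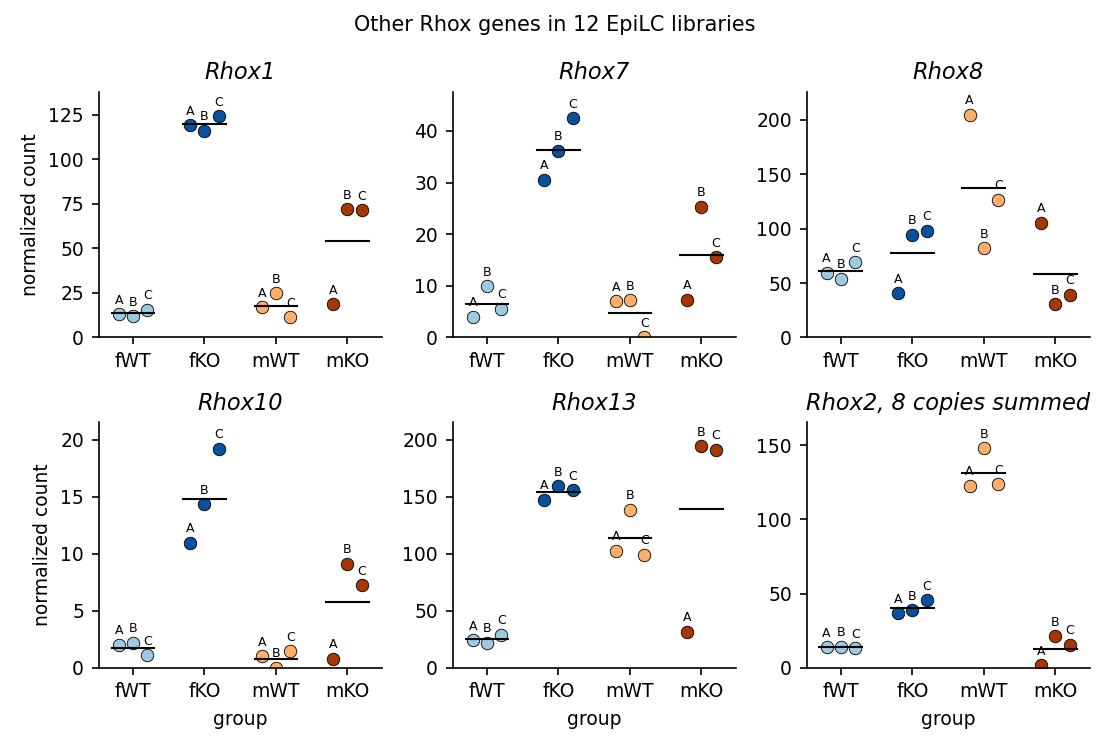
Normalized counts of *Rhox1*, *Rhox7*, *Rhox8*, *Rhox10* and *Rhox13* and the sum over the 8 *Rhox2* copies in the 12 libraries by group; points are libraries and lines are means of 3. The *Rhox2* sum is 123 to 148 in mWT and at most 45.5 in every other library, and mKO library A is the lowest mKO library for all but *Rhox8*.

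Of the *Rhox2* copies, 5 of 8 rose in females, where 25.4% of all genes tested rose. In males 7 of the 8 copies fell, where 3.58% of all genes tested fell. Their summed normalized count was 14.1, 14.3 and 13.3 in fWT and 36.8, 38.7 and 45.5 in fKO, and the copies that rose were *Rhox2b*, *Rhox2d*, *Rhox2f*, *Rhox2g* and *Rhox2h* (2 of them without fWT library C, 3 when any fKO library was left out). In males the sum was 123, 148 and 124 in mWT and 1.62, 21.3 and 15.5 in mKO. Leaving out mWT library A or mWT library C left 1 copy called, and leaving out mKO library B or mKO library C left 4 and 3. In that order, these fits called 412, 331, 595 and 519 genes over all genes, against 1703 with all libraries. All mWT libraries were high, library B included, in which few of the nearly silent genes had reads. *Rhox2d* is an example: it had 0, 0 and 1 reads in fWT and 3, 6 and 3 in fKO (limma adjusted p = 0.0039). In males it had 14, 19 and 9 reads in mWT and 1, 1 and 0 in mKO, a change of -3.40 (SE 0.53, limma adjusted p = 0.0067), and it passed in both sexes whichever library was left out. In females the calls of *Rhox2f*, *Rhox2g* and *Rhox2h* were each lost without fWT library C and without 3 other libraries, with an adjusted p of up to 0.170. *Rhox2e*, the copy with the most reads, was at 22.9, 39.3 and 31.6 in mWT and at 0.81, 7.10 and 3.10 in mKO (adjusted p = 0.018). No 50-base word of *Rhox2e* occurred at 1 place only in mm9, and at most 51.4% of those of any *Rhox2* copy did, so the split of reads among copies is uncertain and the calls of the copies are not separate observations.

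The *Rhox4* copies were low in females, with a summed normalized count of 1.44 ± 0.66 in fWT and 8.47 ± 3.05 in fKO. *Rhox4e* alone of the 7 copies rose there, from 0 reads in fWT to 3, 4 and 2 in fKO (at least 2.41-fold higher, limma adjusted p = 0.0015). In males the sum was 25.7 ± 2.53 in mWT and 13.1 ± 6.00 in mKO (SD, n = 3), and no copy passed. *Rhox3a*, *Rhox3c* and *Rhox3e* had at most 2 reads in any library, and the other *Rhox3* genes had none. *Rhox11* had 1 read in all.

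The 250 bases before the RefSeq start are shown for 3 genes of the cluster: *Rhox5*, for which no level is given, and *Rhox1* and *Rhox10*, which had the fewest and the most CG pairs, the sites at which DNA is methylated. The sequences are from RefSeq on GRCm38.p6, not the build above, and CG pairs are in capitals. They lie at chrX:37754358-37754607 on the plus strand, chrX:37222259-37222508 on the minus strand and chrX:38066225-38066474 on the plus strand.
Rhox5: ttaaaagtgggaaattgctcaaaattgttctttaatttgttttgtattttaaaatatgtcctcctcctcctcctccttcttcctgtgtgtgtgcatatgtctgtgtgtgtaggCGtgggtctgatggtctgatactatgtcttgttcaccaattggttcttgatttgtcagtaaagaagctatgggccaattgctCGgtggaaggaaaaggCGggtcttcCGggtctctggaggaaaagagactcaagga
Rhox1: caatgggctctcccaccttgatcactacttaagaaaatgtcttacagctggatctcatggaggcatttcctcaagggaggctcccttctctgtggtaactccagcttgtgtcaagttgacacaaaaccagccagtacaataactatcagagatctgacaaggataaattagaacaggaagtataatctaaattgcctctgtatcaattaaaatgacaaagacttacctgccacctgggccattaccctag
Rhox10: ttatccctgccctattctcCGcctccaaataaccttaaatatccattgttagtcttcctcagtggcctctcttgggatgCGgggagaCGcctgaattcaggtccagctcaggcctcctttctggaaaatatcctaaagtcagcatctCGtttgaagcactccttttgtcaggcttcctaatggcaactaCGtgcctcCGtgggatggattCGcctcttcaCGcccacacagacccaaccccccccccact

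*Rhox5* had 4 CG pairs in this window, *Rhox1* had 0 and *Rhox10* had 8. Over the 25 *Rhox* promoters matched, the median was 4, against 6 over 27018 promoters. Both *Rhox1* and *Rhox10* rose in fKO, with the lowest and the highest CG count. *Rhox6*, *Rhox7*, *Rhox8* and *Rhox9* had no entry. The E-box CACGTG was found in 4 of the 25 *Rhox* promoters (6.05% of all promoters), and these 4 were all *Rhox4* copies. GGAAG or its reverse complement CTTCC, the core of ETS sites, was found in 19 (63.6%). TCCCGC or GCGGGA, an E2F core, was found in 0 (16.9%). The *Rhox2*, *Rhox3* and *Rhox4* copies were counted one by one here, so the 25 promoters are not separate observations. The octamer ATGCAAAT or ATTTGCAT was found in 0 (1.61%).

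Genes of the DNA methylation machinery were examined because methylation is known to silence the cluster. Of 9 writers and maintenance genes 6 rose in females, where 25.4% of all genes tested rose, and 1 in males, where 4.19% did. *Dnmt3l*, the cofactor of the de novo enzymes, rose in both sexes, from 942 ± 90.3 to 4105 ± 206 in females (limma adjusted p = 2.4e-14) and from 622 ± 227 to 2718 ± 356 in males (adjusted p = 0.00085; SD, n = 3). *Dnmt3a*, a de novo methyltransferase, rose from 2130 ± 75.7 to 6446 ± 99.0 in females (SD, n = 3), and its change was -0.08 (SE 0.18, limma adjusted p = 0.779) in males. *Dnmt3b*, the other one, rose by 0.83 in females (SE 0.05). In males it was 4604 ± 2304 in mWT and 2903 ± 1421 in mKO (SD, n = 3; adjusted p = 0.282). *Dnmt1*, the maintenance enzyme, did not pass in females (0.02, adjusted p = 0.817) or males (0.31, adjusted p = 0.250). Of the genes for the TET dioxygenases, which oxidize methylated cytosine, *Tet3* rose in both sexes (0.57 and 0.79, the latter lost without mKO library B or C or mWT library A or C, with a limma adjusted p of up to 0.104), *Tet1* rose in females (0.90) and *Tet2* fell in females (-0.55). Without mWT library B and mKO library A, 9377 genes were called in males over all genes, against 1703 with all libraries. In that fit 7 of the 9 writers and maintenance genes were called higher and 1 lower. The latter was *Dnmt3b* (-0.65, limma adjusted p = 0.00018), and *Dnmt3a* (0.21, adjusted p = 0.018) and *Dnmt1* (0.55, adjusted p = 0.0015) were among those higher.

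Trophoblast markers were examined because *Rhox6* and *Rhox9* are known for expression in placenta. Over all genes, 4.19% rose and 3.58% fell in males, and 25.4% rose and 24.6% fell in females. In males 331 genes were called without mWT library C, 519 without mKO library C and 412 without mWT library A. Without mKO library B 595 were called, and without mKO library A 4314, against 1703 with all libraries. Without both mWT library B and mKO library A 9377 were called. Of 16 markers, 10 rose and 1 fell in males (4 rose without mWT library C, 5 without mKO library C, 6 without mWT library A or mKO library B, and 11 without mKO library A, with or without mWT library B), and 4 of 15 tested rose and 3 fell in females. Their summed normalized count was 1364 to 2096 in mWT and 3697 to 7938 in mKO, with the lowest value in mKO library A, and 2026 to 2336 in fWT and 2216 to 2367 in fKO. *Hand1*, a transcription factor of trophoblast giant cells and of mesoderm, rose from 22.3 ± 4.00 to 640 ± 287 in males (SD, n = 3; limma adjusted p = 0.00014) and from 53.7 ± 7.97 to 104 ± 14.1 in females (adjusted p = 8.0e-05). *Esx1*, an X-linked homeobox gene of the placenta, rose by 3.93 in males (SE 0.59, adjusted p = 0.0053). *Krt7*, a keratin of simple epithelia, rose by 3.31 in males (SE 0.32, adjusted p = 0.00074). *Gata3*, a transcription factor of trophoblast, rose by 2.83 in males (SE 0.61, limma adjusted p = 0.025; up to 0.087 without mKO library B or C or mWT library A or C) and fell by 1.09 in females. Of the defining markers of trophoblast, *Elf5* was at 2.84 in mWT and 2.71 in mKO and *Cdx2* at 1.85 and 13.5. *Tpbpa* was at 2.58 in mWT and 0.68 in mKO, and at 0 in all female libraries. *Eomes* was at 193, 176 and 185 in mWT and at 93.3, 250 and 254 in mKO, and did not pass (limma adjusted p = 0.965). *Gcm1* fell in males (limma adjusted p = 0.033, up to 0.155 without mKO library B or C or mWT library A or C). In bulk samples, more cells of a type and more RNA per cell cannot be told apart, and the part of such cells in the *Rhox6* and *Rhox9* levels was not tested.

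**Figure D4:**
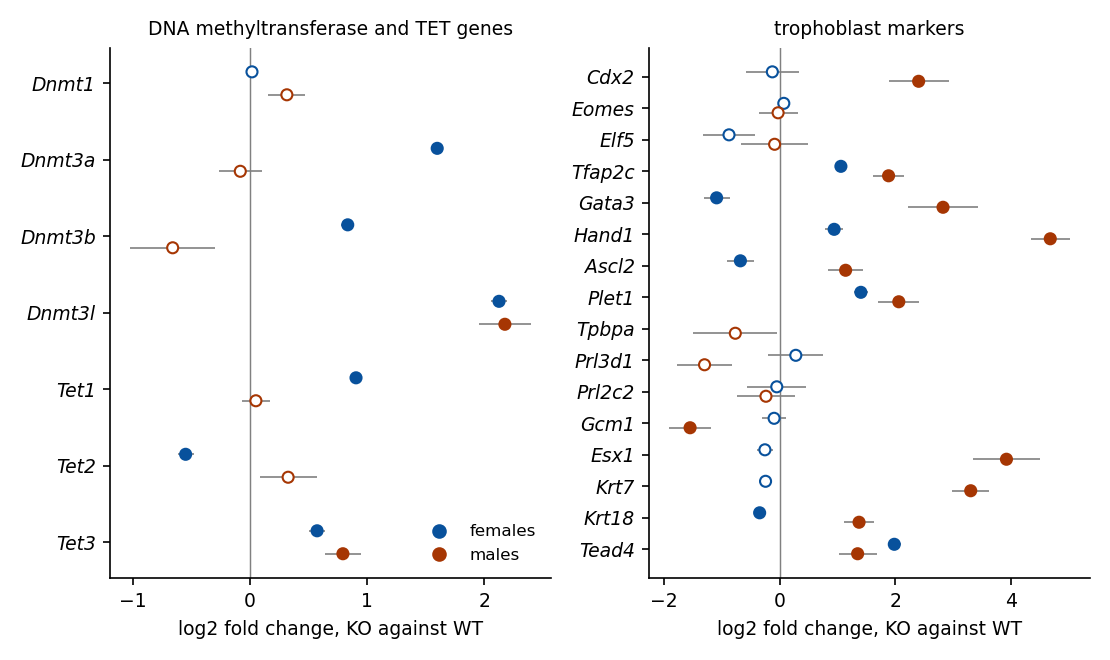
Change of the DNA methyltransferase and TET genes (left) and of 16 trophoblast markers (right) in mutant against control (log2 fold change on the log2(normalized count + 1) scale, with SE) in females and males; filled points passed the test in limma. In males 10 trophoblast markers are filled to the right of 0, from *Ascl2* to *Hand1*.

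Other genes silenced by DNA methylation in somatic cells were compared as lists. Over all genes, 25.4% rose and 24.6% fell in females, and 4.19% rose and 3.58% fell in males. The male fit without mWT library B and mKO library A called 9377 genes and the one without mWT library C called 331, against 1703 with all libraries. Of 29 germline genes, 22 rose and 6 fell in females, and 6 rose and 5 fell in males, where 1 rose and 3 fell without mWT library C, and 16 rose and 9 fell without mWT library B and mKO library A. *Dazl*, an RNA-binding factor of germ cells, rose by 5.33 in females and 3.17 in males, the latter lost without mWT library C (limma adjusted p = 0.061). Of 26 genes in X-linked clusters of the placenta and germ line, 14 rose and 4 fell in females, and 3 rose and 9 fell in males, where 2 rose and 2 fell without mWT library C, and 4 rose and 13 fell without mWT library B and mKO library A. *Xlr5a*, a member of the Xlr family, rose by 2.35 in females and fell by 2.74 in males, a call lost when any mWT library was left out (limma adjusted p up to 0.090). Of the other lists, counts of genes that rose and fell were as follows in females: 2 and 1 of 4 erasers, 2 and 2 of 8 methyl-CpG readers, 3 and 6 of 13 H3K9 and H1 repressors, 6 and 1 of 12 subunits of PRC1.6, and 5 and 1 of 9 primordial germ cell markers. In males they were 1 and 0, 2 and 0, 0 and 0, 1 and 0, and 3 and 0, and without mWT library B and mKO library A they were 2 and 0, 5 and 1, 6 and 2, 5 and 0, and 5 and 0. Of cell state markers, in females 13 of 13 endoderm markers rose, 10 of 12 naive ESC markers rose and 1 fell, 5 of 10 EpiLC markers rose and 4 fell, and 3 of 5 pluripotency markers rose and 1 fell. In males 0 of the endoderm markers rose and 2 fell, 7 of the naive markers rose (2 without mWT library C), 3 of the EpiLC markers fell, and 1 pluripotency marker rose and 1 fell. When mWT library B and mKO library A were left out, 8 endoderm markers rose and 4 fell, 11 naive markers rose and 1 fell, 3 EpiLC markers rose and 7 fell, and 2 pluripotency markers rose and 3 fell.

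Outside the cluster, 28 genes of the tables lay within 1 Mb on either side. In females 3 rose and 8 fell of 25 tested, against 25.4% and 24.6% over all genes. In males 1 rose and 1 fell of 27, against 4.19% and 3.58%. Without mWT library B and mKO library A 10 were called, in a fit that called 9377 genes over all genes. *Rpl39*, a ribosomal protein gene, was called in both sexes, and fell by 0.24 in females, with a limma adjusted p of 0.035, and by 0.79 in male cells, with an adjusted p of 0.024. The call was lost in both sexes when any of 4 libraries was left out, namely fKO library A or B and fWT library B or C in females and mKO library B or C and mWT library A or C in males. The median change of the neighbours was -0.10 in females and -0.07 in males, and the changes ranged from -1.52 to 1.38 in females and from -0.79 to 1.49 in males, genes that did not pass included.

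The genes whose levels were most like those of *Rhox6* over the 12 libraries were *Rhox9* (r = 0.993), *Phf13* (r = 0.984), *Atp11a* (r = 0.983), *Epha4* (r = 0.983) and *Plekhh1* (r = 0.977), by Pearson's r of log2(normalized count + 1) among 14131 genes. For *Rhox9* they were *Rhox6*, *Hand1* (r = 0.983), *Rell1* (r = 0.978), *Atp11a* (r = 0.978) and *Chst8* (r = 0.976). Each had its highest group mean in mKO and its next in fKO, so the correlations rest on the groups and on mKO libraries B and C. Among other *Rhox* genes with a mean of at least 10, r to *Rhox6* was 0.57 for *Rhox1*, 0.49 for *Rhox7* and 0.45 for *Rhox13*. It was -0.49 for *Rhox2e* and -0.61 for *Rhox8*.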

How the data were processed

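RNA-Seq of EpiLCs was analysed for 12 libraries, 3 per group. Per the labels and the study's methods, RNA depleted of rRNA was sequenced as 50-base single-end reads, which the authors mapped to mm9 with TopHat2 2.1.0 and kept where unique; the processing notes of the submitters also name Bowtie2 2.2.6.0, DESeq and Cuffdiff. The deposited signal columns are the mean normalized count of each group in 2 tables, 1 per sex. Deposited fold changes and p-values of the authors' comparisons were not used.

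Reads per library were solved from the group means, since each is a sum of 3 whole numbers over their size factors. Every gene with a mean of at most 10000 had 1 solution, and the solver was tested on simulated data. Genes above that mean were left out of the fits and of the read totals. Limma 3.58.1 (R 4.3.3) with an intensity trend was fitted to log2(normalized count + 1) within each sex, and over 12 libraries for the difference between the sexes. Benjamini-Hochberg adjustment was over all genes with a read among those solved. This scale understates the change of low genes. Adjusted p-values set a change against the spread between these libraries, with the variance of each gene moderated by that of other genes.

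The members, lists, named genes and tests were chosen with earlier results of these data known. Named genes are all *Rhox* genes with a read, the DNMT and TET genes, and markers. Also named are the 5 genes most like each member, neighbours called in both sexes, and up to 4 genes per list. The latter had the largest change among those called with a mean of at least 10. *Cdx2*, *Elf5*, *Eomes* and *Tpbpa* are named as defining markers. Promoters are from RefSeq, and gene positions from GENCODE vM1.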

Additional observations from a re-analysis of the deposited data

Results flagged for a closer look

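The change between mutant and control differed between the sexes, by the interaction of sex and genotype in limma over 12 libraries at an adjusted p under 0.05, for 12 of the 25 other *Rhox* genes tested, against 21.2% of all 22014 genes, and for 4 genes of DNA methylation. *Rhox6* and *Rhox9* were not tested for this. Values are the male change less the female change, on the log2(normalized count + 1) scale. All 8 *Rhox2* copies differed, with -3.93 for *Rhox2e*, -2.05 for *Rhox2a*, -5.06 for *Rhox2b*, -4.02 for *Rhox2c*, -5.16 for *Rhox2d*, -4.23 for *Rhox2f*, -4.26 for *Rhox2g* and -3.92 for *Rhox2h*. Of the *Rhox4* copies, *Rhox4a* differed by -2.74, *Rhox4e* by -2.28 and *Rhox4f* by -2.30. *Rhox13* differed by -2.66 (SE 0.70), and it alone of the 12 was no *Rhox2* or *Rhox4* copy. At most 51.4% of the 50-base words of any *Rhox2* copy and 32.2% of those of any *Rhox4* copy occurred at 1 place only in mm9. The copies are therefore not separate observations, and the count of 12 cannot be set directly against the share over all genes. In females the *Rhox2* copies and *Rhox13* stood at or above the control, as given above. *Dnmt3a* differed by -1.68, *Dnmt3b* by -1.49, *Tet1* by -0.85 and *Tet2* by 0.88. Without mWT library B and mKO library A, 15 of these 16 differences still passed, the exception being *Rhox4f* (-1.84, adjusted p = 0.073).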

How the results depend on the processing

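The spread between libraries was taken as the larger of the SDs of mutant and control on the log2 scale. The changes of *Rhox6* and *Rhox9* in each sex moved by less than it with another pseudocount (0.1) or median-of-ratios scaling. The same held for total-read scaling and for the ratio of the deposited means. Leaving out 1 of 3 libraries could not move a change by more than this spread. Nor could leaving out mWT library B and mKO library A together. Those fits are therefore no check of whether the changes stay within it. With each library left out in turn, the changes of *Rhox6* and *Rhox9* ranged from 1.09 to 1.30 and from 1.14 to 1.35 in females. In males they ranged from 3.56 to 4.58 and from 4.01 to 5.07. The counts of called genes depended strongly on the libraries in males. In females the other *Rhox* genes called higher fell from 11 to 7 without fWT library C, and the other female counts stayed within 1.5 times when any library was left out. Leaving out each library in turn gave 8810 to 9139 calls in females and 331 to 4684 in males, 123 to 128 and 17 to 95 genes of the lists, 10 to 12 and 0 to 8 neighbours, 7 to 10 and 0 to 4 other *Rhox* genes called higher, and 0 and 1 to 7 called lower. The leave-one-out fits assume that a group of 2 libraries varies like the others. One fit over all 12 libraries called 6493 genes in females and 4766 in males, 96 list genes, 6 neighbours and 2 other *Rhox* genes higher in males. A minimum mean of 10 left 3 other *Rhox* genes higher in females, and 0 higher and 2 lower in males, since fewer genes were tested. A pseudocount of 0.1 left 4 lower in males; the cause was not tested. A window of 500 kb held 6 called neighbours in females. Without mWT library B and mKO library A, chosen after seeing the data, there were 9377 calls in males, 133 list genes, 10 neighbours, 5 other *Rhox* genes higher, and 10014 genes whose change differed between the sexes. Of all alternatives computed, 112 values stayed within the spread or within 1.5 times of the reported count and 39 did not. The 112 include the leave-one-out changes of *Rhox6* and *Rhox9*, which could not leave the spread. No paired analysis was possible because the recovered libraries carry no sample numbers.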
